A study of Mus musculus with 4 samples.

Results

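Keratins are the filament proteins of skin, hair and other epithelia, and 8 genes of this group were followed over 4 arrays of mouse calf muscle. The genes were Krt10, a keratin of the suprabasal epidermis; Krt25, Krt27 and Krt71, keratins of the inner root sheath of the hair follicle; Krtap8-1, a keratin-associated protein gene of the hair shaft; and Krt5, Krt14 and Krt15, keratins of basal epidermal cells. They were chosen by their signals on these same arrays, mainly by the values 3 h after cortisol and by the absence of signal for the basal genes, so their own values are a description and carry no test. Of the 12422 probe sets that were not controls, 9 were annotated to 1 of these 8 genes alone, 2 of them to Krt10 and 1 to each other gene. Another 36 genes of the keratin and keratin-associated families were on the array among 8251 genes in all, and these were taken by name only, whatever their values.

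Gastrocnemius lies in the calf and consists largely of fast muscle fibres. Its RNA was measured on MG-U74Av2 oligonucleotide arrays, 1 for each of 4 groups. The groups were intact mice, mice adrenalectomized 1 week earlier, and adrenalectomized mice killed 3 h or 24 h after 0.1 mg of cortisol was injected into the peritoneum; for the injected groups the interval since surgery was not given. Each array held the muscles of 10 mice in a single pool, so there were no replicates, and the labels named no strain, sex, age, vehicle injection or time of day. Fast fibre genes, the check on the labelled tissue, were above the detection floor for 13 of 13 genes on all 4 arrays, and their summed signal lay between 246132 and 254467. The arrays were run in 4 fluidics modules, 1 array in each, and the effects of group, of pool and of module cannot be told apart.

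Keratin filaments are built from pairs of an acidic type I and a basic type II keratin. Basal epidermal cells make Krt5 with Krt14 or Krt15, and their daughters replace these with Krt1 and Krt10 as they move outward. In the hair follicle the inner root sheath, which shapes the growing hair, makes its own pairs, among them Krt25 or Krt27 with Krt71, while the hair shaft holds hair keratins embedded in keratin-associated proteins. The main intermediate filament protein of muscle fibres is desmin.

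The genes lie in the keratin clusters of the mouse genome. In the order of protein-coding genes in the GRCm38.p6 annotation, Krt25, Krt26, Krt27, Krt28 and Krt10 follow one another on chromosome 11, which also holds Krt14 and Krt15, and Krt5 is the immediate neighbour of Krt71 on chromosome 15. Krtap8-1 lies on chromosome 16 beside Krtap6-2. Promoter sequences of 7 of the 8 genes were in the RefSeq table of that build, and the 100 bases before each transcription start are printed below 5′ to 3′ on the gene's own strand, with every TATAAA, the letters of the TATA box, in capitals. They are shown because these exact letters were shared by the 5 genes with signal and were not found for Krt5 and Krt14. Other forms of the TATA box were not searched for. The Krt5 sequence holds gataaa, which differs from TATAAA only in its first letter, so whether Krt5 lacks a TATA box was not tested. The regions are chr11:99389365-99389464 for Krt10, chr11:99322952-99323051 for Krt25, chr11:99351119-99351218 for Krt27, chr15:101743098-101743197 for Krt71, chr16:89487953-89488052 for Krtap8-1, chr15:101712906-101713005 for Krt5 and chr11:100206031-100206130 for Krt14, each on the minus strand of GRCm38.p6.
Krt10: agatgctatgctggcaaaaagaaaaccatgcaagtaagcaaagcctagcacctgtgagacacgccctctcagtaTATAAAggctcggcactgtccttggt
Krt25: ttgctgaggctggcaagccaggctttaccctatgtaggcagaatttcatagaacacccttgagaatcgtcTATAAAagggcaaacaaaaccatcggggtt
Krt27: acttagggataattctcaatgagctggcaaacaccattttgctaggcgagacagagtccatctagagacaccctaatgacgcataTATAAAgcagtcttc
Krt71: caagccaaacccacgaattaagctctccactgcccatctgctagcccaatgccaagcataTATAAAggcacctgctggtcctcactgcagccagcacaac
Krtap8-1: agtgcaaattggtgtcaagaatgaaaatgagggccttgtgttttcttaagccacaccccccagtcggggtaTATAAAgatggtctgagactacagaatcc
Krt5: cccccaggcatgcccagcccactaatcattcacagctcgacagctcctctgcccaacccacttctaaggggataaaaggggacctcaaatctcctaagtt
Krt14: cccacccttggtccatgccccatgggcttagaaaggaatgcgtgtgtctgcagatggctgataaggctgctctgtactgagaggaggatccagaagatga

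The letters TATAAA began 26 bases before the annotated start in Krt10, 30 in Krt25, 15 in Krt27, 40 in Krt71 and 29 in Krtap8-1. Windows of 300 bases, from 250 before to 50 after the start, were searched on both strands, and 5 of the 7 keratin windows held TATAAA against 13.6% of all 32851 promoter windows in the table. Of the 44 keratin and keratin-associated genes on the array, 30 were in the promoter table, with 31 windows, and 21 of these held it, so the letters were frequent in the families as a whole and not only in the genes with signal. AGAACA, one arm of the site that the glucocorticoid receptor binds, was found in 2 of the 7 windows, those of Krt25 and Krt10, against 19.0% of all windows. TTNNGNAA, a form of the C/EBP site, was found in 3 of 7 (Krt10, Krt14 and Krtap8-1) against 40.7% of all. TGANTCA (AP-1), GCCNNNGGC (AP-2) and CTTTGA (the core of the LEF1 site) were found in 0 of 7, against 7.81%, 16.6% and 16.0% of all windows. No matches of different motifs overlapped in these windows. A match is a run of letters and not a bound site, and a window without one says nothing of the factor.

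Signals are the MAS 5.0 values of the probe sets, scaled so that the trimmed mean of each array was 500, and a signal under 100 was treated as not measured. Where both arrays of a comparison reached this floor the ratio is measured; where the lower array did not, the fold is a lower bound against the floor. With 1 array per group no test or p-value was possible. The only error in the data was the disagreement between 2 probe sets of the same gene, which gave an SD for a log2 ratio of 0.24 in adrenalectomized against intact, 0.28 in 3 h against adrenalectomized and 0.31 in 24 h against 3 h. This SD holds no variation between mice or pools, so it does not bound the error of a comparison between groups. In pooled tissue more cells of a type and more RNA per cell cannot be told apart.

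Krt10, the keratin of cells that have left the basal layer, had a signal of 227 in intact mice, 175 after adrenalectomy, 2549 at 3 h and 531 at 24 h. It was above the floor on all 4 arrays, highest at 3 h and second highest at 24 h. The difference from the adrenalectomized array was 14.6-fold at 3 h and 3.03-fold at 24 h. A second probe set of Krt10 stayed under the floor on every array, with 25.5 at 3 h and 9.08 after adrenalectomy, so the values rest on 1 probe set. Averaging the log signals of both sets left a log2 ratio of at least 1.35 in place of 3.86.

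Krt71, the type II keratin of the inner root sheath, had signals of 172, 202, 1614.5 and 460.4 on the same 4 arrays. Like Krt10 it was measured on all arrays, and it had the same order of the later 2 over the earlier 2. It was 7.98-fold higher at 3 h than after adrenalectomy and 2.27-fold higher at 24 h.

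Krt25, a type I partner in the inner root sheath, had signals of 10.7 in intact mice, 12.01 after adrenalectomy, 909 at 3 h and 226 at 24 h. Krt27, its neighbour in the gene cluster and in the same layer, had 19.9, 67.5, 996 and 276. Both were under the floor on the arrays without cortisol and above it on both arrays with it. Krt25 was at least 9.09-fold higher at 3 h than after adrenalectomy and Krt27 at least 9.96-fold. The probe set of Krt27 carried a suffix that marks probes shared within a gene family, so its signal may include related transcripts.

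Krtap8-1, whose product lies between the keratin filaments of the hair shaft, had signals of 55.9, 4.79, 1147 and 169 in the same order. It was at least 11.5-fold higher at 3 h than after adrenalectomy and at least 1.69-fold higher at 24 h, both bounds that rest on the floor.

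The basal keratins had no measurable signal. Krt5, the type II keratin of basal cells, had signals of 24.1, 25.7, 19.3 and 21.3. Its partner Krt14 had 14.8, 19.1, 16.7 and 17.99. Krt15, found in basal cells and in the bulge of the hair follicle, had 4.55, 4.85, 5.73 and 9.07. All of these values were far under the floor, and no order among the arrays could be read from them. Whether these 3 probe sets detect their transcripts at all was not tested, since no skin sample was among the arrays.

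**Figure D1:**
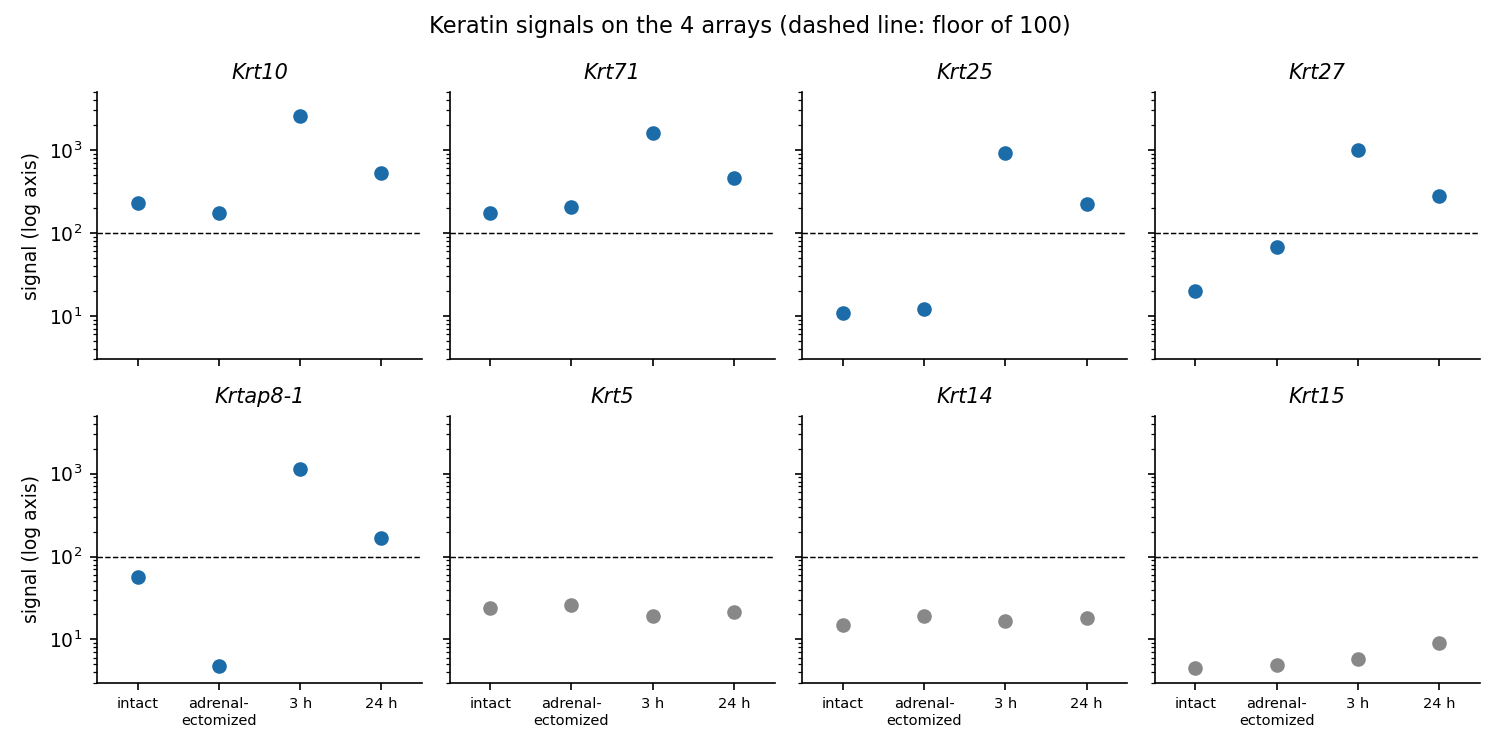
Signals of the 8 keratin genes on the 4 arrays, 1 pool of 10 mice each, on a log axis; the dashed line is the floor of 100. Krt10, Krt71, Krt25, Krt27 and Krtap8-1 were highest at 3 h, between 909 and 2549, and lower at 24 h, while Krt5, Krt14 and Krt15 stayed under the floor throughout.

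Adrenalectomy alone was not accompanied by a 2-fold difference in any of the 8 genes. Only Krt10 and Krt71 could be compared, with log2 ratios of -0.37 and 0.24 for adrenalectomized against intact mice, in opposite directions. Both were within 2 SDs of 0 by the disagreement between probe sets, which holds no variation between mice or pools. Of 6112 genes, 0.344% were past 2-fold in the higher direction and 0.376% in the lower.

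At 3 h against adrenalectomized mice 5 of the 8 genes were at least 2-fold higher and 3 were not measurable, where 1.86% of 6168 genes were at least that much higher (115 genes, beside 72 that were lower; 83 and 120 under scaling by ribosomal protein genes). The arrays and genes are those that chose the members, so nothing is read from the count. Against intact mice the same 5 were higher, where 1.83% of 6162 genes were, with Krt10 at 11.2-fold and Krt71 at 9.41-fold.

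Between 3 h and 24 h all 5 measured genes were at least 2-fold lower, with both arrays above the floor in each case; 1.96% of 6229 genes were. Krtap8-1 was 6.78-fold lower, Krt10 4.80-fold, Krt25 4.03-fold, Krt27 3.61-fold and Krt71 3.51-fold. The log2 ratios were from -2.01 to -1.81 for the 3 root sheath keratins, -2.26 for Krt10 and -2.76 for Krtap8-1; whether the genes differ in this was not tested. At 24 h the signals were nevertheless above those of the arrays without cortisol. Against adrenalectomized mice 4 of the 8 genes were at least 2-fold higher at 24 h (1.27% of 6228 genes were), namely Krt10, Krt27 at 2.76-fold or more, Krt71 and Krt25 at 2.26-fold or more. With a floor of 200 only 2 genes passed, and with a floor of 50 Krtap8-1 passed too. Against intact mice the same 4 passed (1.11% of 6219 genes did), with Krt71 at 2.68-fold and Krt10 at 2.34-fold. The comparisons at 3 h and 24 h share the adrenalectomized array, and those against 3 h share the 3 h array, so they are not independent.

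**Figure D2:**
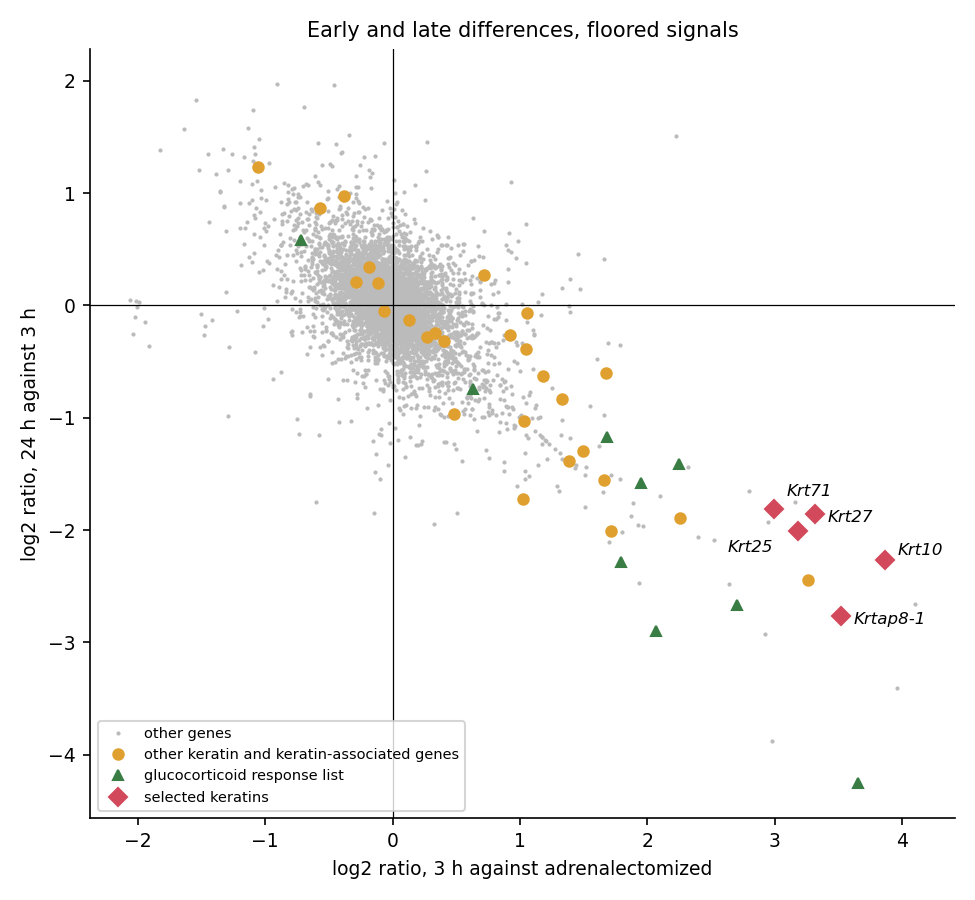
Log2 ratio of floored signals at 3 h against adrenalectomized mice (horizontal) and at 24 h against 3 h (vertical); each point is a gene and both axes contain the 3 h array, which by itself places points along the falling diagonal. The selected keratins lie at the lower right, with vertical values between -2.76 and -1.81, as do glucocorticoid response genes such as Ddit4 at 3.65 and -4.25.

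Other genes of the keratin families were also higher at 3 h; differences between their classes were not tested. Of the 36 on the array, 27 reached the floor on at least 1 of the 2 arrays. Of these, 13 were at least 2-fold higher than after adrenalectomy (8 under ribosomal protein scaling), where 1.86% of 6168 genes were. At least 2-fold lower was 1, where 1.17% of all genes were, and 13 differed by less. Their median log2 ratio was 0.92, where that of all genes was -0.02. All 13 were highest on the 3 h array. Against intact mice 12 of them (not Krt86) were also at least 2-fold higher, where 1.83% of 6162 genes were. At 24 h 8 of the 13 were at least 2-fold lower again, where 1.96% of 6229 genes were. The 13 were picked by high values on the 3 h array. Their rank on that array and their ratios to intact mice and to 24 h reuse it, so nothing is read from these counts. Of the 13, 4 (Krt31, Krt34, Krt77 and Krtap19-5) were under the floor after adrenalectomy and could only come out higher, so neither the count nor the median supports more than the values themselves.

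Among the root sheath keratins Krt72, a type II partner, had signals of 192, 195, 405 and 386. It was 2.07-fold higher at 3 h and, unlike Krt71, differed by a log2 ratio of only -0.07 between 24 h and 3 h. All 4 root sheath keratin genes on the array, the 3 selected ones included, were at least 2-fold higher at 3 h, where 1.86% of 6168 genes were. The 3 selected genes were chosen by these same values and only Krt72 was not, so nothing is read from this count.

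Of the 6 type I hair keratin genes, which build the hair shaft, 5 were higher. Krt31 was at least 4.77-fold higher (104, 80.1, 477 and 129 on the 4 arrays), Krt35 3.27-fold, Krt34 at least 2.62-fold, Krt32 2.51-fold and Krt33b 2.27-fold. Krt36 went the other way and was 2.08-fold lower (595 after adrenalectomy and 286 at 3 h), on a probe set whose suffix marks relaxed probe selection. Second probe sets of Krt35 and Krt33b, above the floor on all 4 arrays, had log2 ratios of only 0.19 and 0.24, so the sets of these genes disagreed. A second probe set of Krt32 was under the floor throughout. The Krt35 set with the higher ratio carried the same suffix as that of Krt27, for probes shared within a gene family. Of the 4 type II hair keratin genes Krt86 was 2.07-fold higher, Krt81 and Krt84 had log2 ratios of 0.48 and -0.57, and Krt83 was under the floor.

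Of the 11 keratin-associated protein genes, 8 could be compared and 5 were higher, Krtap8-1 among them. Krtap14 had signals of 147, 101, 323 and 213.5 and was 3.20-fold higher. Krtap6-2, the neighbour of Krtap8-1, was 2.82-fold higher, Krtap19-5 at least 2.04-fold and Krtap3-1 2.03-fold. Krtap5-1, Krtap5-4 and Krtap13 differed by less than 2-fold. Krtap14 was the only one of the 36 that was also at least 2-fold higher at 24 h than after adrenalectomy, by 2.11-fold. Another 2 probe sets were annotated to several genes that included keratin-associated ones and were left out.

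The remaining keratins are those classed as epithelial, of the epidermis, hair follicle and other epithelia. Krt77, a type II keratin of suprabasal and sweat duct cells, had signals of 2.96, 20.9, 958 and 176 and was at least 9.58-fold higher at 3 h. Krt1, the partner of Krt10, had 36.3, 138, 437 and 148 and was 3.15-fold higher. These were the 2 that passed among 6 epithelial type II keratins compared, and Krt10 was the only one among 5 of type I. Krt2 had signals of 246, 307, 252 and 291 and a log2 ratio of -0.29, and its second probe set was under the floor throughout. Krt4 and Krt6b of type II had log2 ratios of -0.06 and -0.19. Of type I, Krt20 had 0.41 and Krt12 had -0.38, a bound. Krt6a, a keratin of wounded epidermis and of the follicle's companion layer, had a log2 ratio of 0.92, and Krt17, of hair follicles, one of 0.72. Other probe sets of these 2 genes, under the floor after adrenalectomy, were at least 2.71-fold higher for Krt6a and at least 2.61-fold and 2.37-fold higher for Krt17. Krt8 and Krt19, keratins of simple epithelia, were under the floor on every array, and their companion Krt18 reached 109.6 at 3 h. Krt7 and Krt16 were also under the floor throughout.

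**Figure D3:**
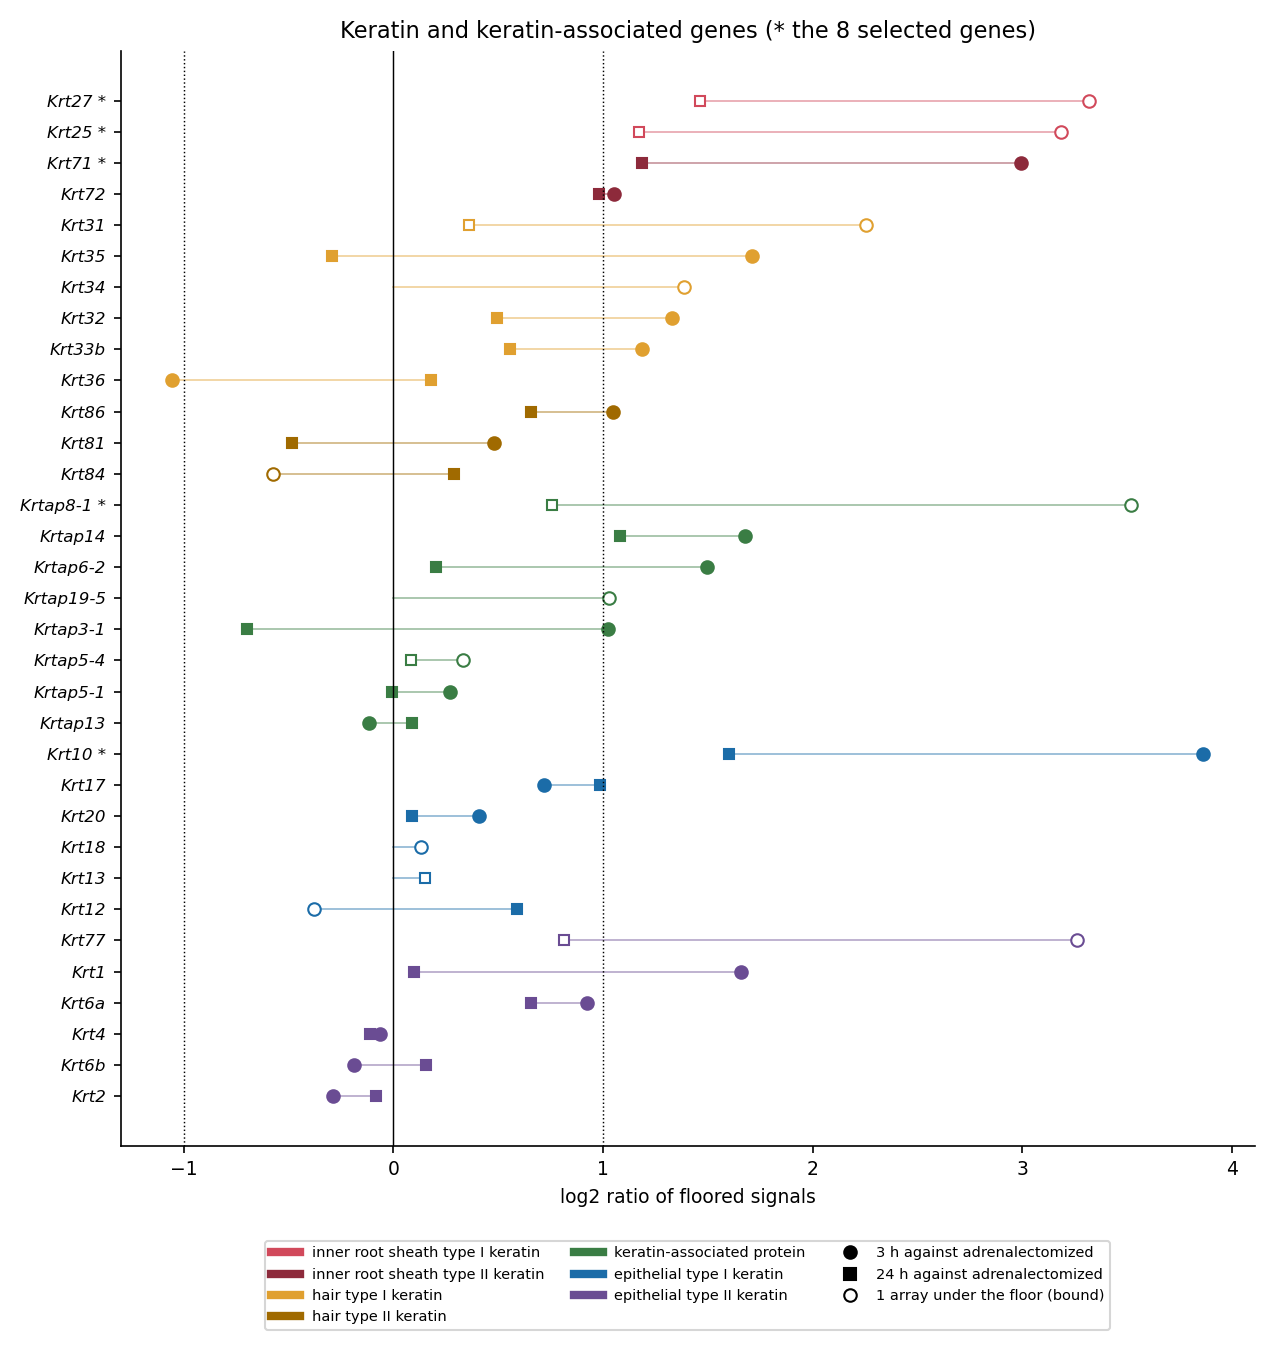
Log2 ratio of floored signals for each keratin or keratin-associated gene that reached the floor on the adrenalectomized, 3 h or 24 h array, at 3 h (circles) and 24 h (squares) against adrenalectomized mice; open symbols are bounds, no symbol is drawn where both arrays were under the floor, and dotted lines mark 2-fold. Most circles of root sheath, hair type I and keratin-associated genes, the selected ones included, lie beyond 2-fold. Among the squares, those of Krt10, Krt25, Krt27, Krt71 and Krtap14 lie beyond it, and that of Krt72 lies just inside, at 0.98.

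Genes of epidermis and hair outside the keratin families were higher at 3 h in part. These lists were drawn up with earlier results of these arrays known, so their direction is not independent of them. The share of all genes at least 2-fold higher at 3 h, against which the counts stand, was 1.86%. Genes under the floor after adrenalectomy and above it at 3 h could only come out higher; there were 3 such among the desmosome genes, 5 among the cornified and 3 among the hair follicle genes. Of 10 desmosome genes, 6 could be compared and 3 were at least 2-fold higher, with a median log2 ratio of 1.23. They were Dsp, which anchors keratin filaments at the junction, at 17.2-fold or more, Perp at 7.70-fold or more and Pkp1 at 3.89-fold. A second probe set of Dsp was under the floor throughout, and one of Pkp1 was at least 1.61-fold higher. The Pkp1 set with the higher ratio carried the same suffix as that of Krt27, for probes shared within a gene family. Pkp2 had the lowest log2 ratio, -0.25, and Dsc1, Dsc2, Dsc3 and Pkp3 were under the floor on all arrays. Of 26 genes of the cornified and suprabasal epidermis, 21 could be compared and 8 were higher, with a median of 0.50. Krtdap, a peptide gene of differentiating keratinocytes, was at least 8.92-fold higher, Flg, which bundles keratin in the outer layers, at least 5.25-fold and the envelope gene Sprr1a 5.00-fold. A second probe set of Flg was under the floor throughout. The only set of Krtdap carried another suffix, and whether it detects that gene alone was not tested. The envelope gene Ivl was under the floor throughout, and Sprr2b was lowest with a log2 ratio of -0.63. Of 11 hair follicle genes, 6 could be compared and 3 were higher, with a median of 0.80. S100a3 of the hair cuticle was 6.94-fold higher, Tchh, whose product binds keratin in the root sheath, at least 2.42-fold and the transcription factor gene Gata3 at least 2.23-fold. The probe set of Tchh also carried the suffix for probes shared within a gene family. Lef1, a regulator of hair differentiation, was lower by a log2 ratio of -2.01, but it was higher after adrenalectomy (457) than in intact mice (185). Its second probe set went the other way, from 36.7 after adrenalectomy to 107 at 3 h and 136.5 at 24 h, so the sets of Lef1 disagreed.

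Of 9 basal keratinocyte genes outside the keratins 8 could be compared, and 0 were at least 2-fold higher or lower at 3 h, with a median log2 ratio of 0.26. This count rests on the floor: with a floor of 50, 2 were at least 2-fold higher, Col17a1 at 3.75-fold or more and Lama3 at 2.96-fold. The largest ratios were 0.91, a bound, for Col17a1, which anchors basal cells, 0.81 for the basal regulator Trp63, and 0.70, also a bound, for the laminin gene Lama3; the lowest was -0.47 for Itgb4. Col17a1 was under the floor except at 3 h, where it read 187.5. Whether the basal and suprabasal lists differ was not tested.

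Among markers of other cells that lie in or near skin and of cell division, only Cdk1 passed 2-fold at 3 h against adrenalectomized mice. Of 8 melanocyte genes 3 could be compared at 3 h, with Dct at a log2 ratio of 0.26, Sox10 at -0.12 and Mitf at -0.58, and the pigment enzyme genes Tyr and Tyrp1 were under the floor at 3 h. The sebaceous gland gene Mc5r had a log2 ratio of -0.78 and Elovl3 was under the floor. Of 13 genes of simple epithelium and mammary gland, 9 were under the floor on every array, the milk protein genes Csn2, Csn3, Lalba and Wap among them. Cldn4 had the highest ratio, 0.97, followed by Cldn3 at 0.69, a bound, and Cdh1 at 0.33, and Elf3 the lowest, -0.73. All 9 fibroblast genes were measured, with a median of -0.28 and a range from -0.74 for Prrx1 to 0.08 for Col3a1. Of 16 cell division genes 12 could be compared and 1 was higher, Cdk1 at 2.32-fold, with a median of 0.06, where 1.86% of all genes were higher. Against intact mice Cldn4, Ccnb2 and Cdk1 were at least 2-fold higher at 3 h, where 1.83% of 6162 genes were. Their log2 ratios were 1.01, 1.10 and 1.36, the last a bound.

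**Figure D4:**
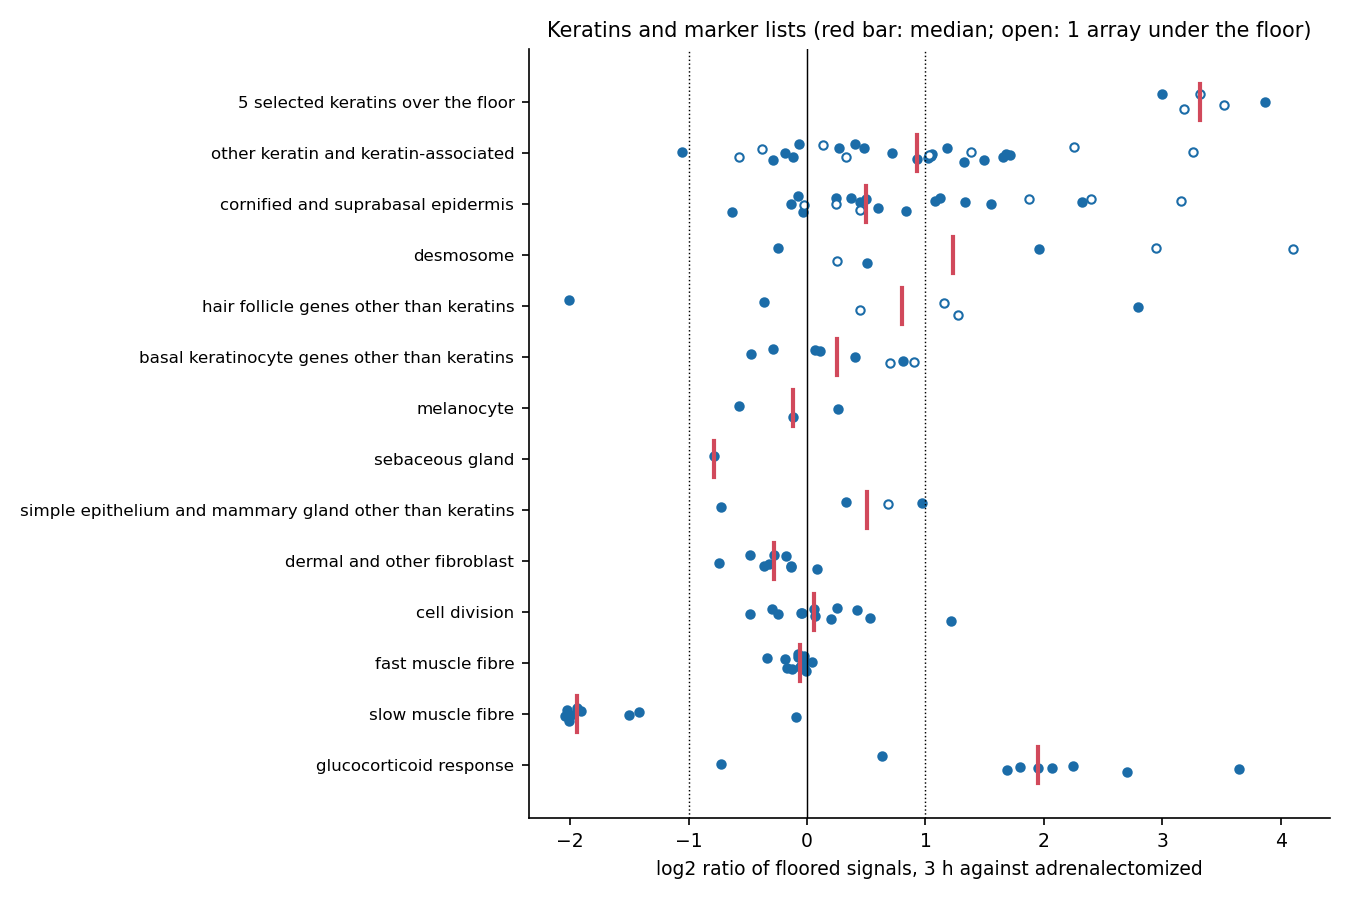
Log2 ratio of floored signals at 3 h against adrenalectomized mice for the 5 selected keratins above the floor, the other keratin and keratin-associated genes, and the marker lists; each point is a gene, open points are bounds, red bars are medians and dotted lines mark 2-fold. Points beyond 2-fold on the right come from keratins, desmosome, cornified, hair follicle and glucocorticoid response genes and from Cdk1. On the left, 8 of the 9 slow fibre genes lie beyond it, with Lef1 of the hair follicle list and Krt36 of the other keratins.

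The 3 h array differed from the arrays without cortisol in other genes as well. Of 9 glucocorticoid response genes, 7 were at least 2-fold higher, where 1.86% of all genes were, with Ddit4 at 12.6-fold, Mt2 at 6.52-fold and the receptor chaperone gene Fkbp5 at 4.74-fold, and Tsc22d3 was lowest with a log2 ratio of -0.72; all 9 were within 2-fold of the adrenalectomized array at 24 h. Of 9 slow fibre genes 8 were at least 2-fold lower at 3 h, with a median of -1.94, and the same count was lower at 24 h, where 1.17% and 1.06% of all genes were. Their summed signal was 59128 in intact mice, 67149 after adrenalectomy, 19521 at 3 h and 18090.2 at 24 h. The summed signal of the cornified epidermis list was 9239, 9976, 14176 and 10304, and that of the 8 keratins 528, 511, 7257 and 1710.5. The desmosome list summed to 1866, 1979, 5478 and 2764, the hair follicle list to 761, 1008, 1926 and 993, and the basal keratinocyte list to 1460, 1322, 1730 and 1434. Each of these sums was highest at 3 h. So were those of the simple epithelium and mammary list, at 1194, 1202, 1563 and 1498, and of the cell division list, at 2771, 3633, 3924 and 3376. The sums of all lists include signals under the floor, which have no order. In the simple epithelium and mammary list 9 of 13 genes were under it on every array, so nothing is read from the order of its sums. A large part of the cornified epidermis sums was Sprr1b alone, with 4437, 4802, 4558 and 4273. Its log2 ratio at 3 h against adrenalectomized was -0.08, on a probe set whose suffix marks relaxed probe selection. The sum of the fibroblast list was 35751, 41223, 35687 and 29528. Slow fibre and keratin signals both stood apart at 3 h, and at 24 h the slow fibre signals stayed at the 3 h level while the keratin signals were lower. The part of tissue other than muscle fibre in the pools was not tested.

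Genes were also ordered by how near their pattern over the 4 arrays was to that of the selected keratins. Nearness was the distance between log2 floored signals, each centred on the gene's own mean, and the median profile of the 5 measured keratins, over 6411 other genes and 4 arrays. In order of distance the first 8 were Krtdap (0.18), Perp (0.25), Krt77 (0.38), Gm10229 (0.61), S100a3 (0.69), Dsp (0.73), Sprr1a (0.79) and Anxa8 (0.83), where the median distance of all genes was 2.65. Among the measured keratins themselves the distance to their median profile ran from 0.06 for Krt25 to 0.56 for Krtap8-1. Of the 8 nearest genes, 1 belonged to the keratin families and 5 to the epidermis and hair lists. The profile came from genes chosen on these arrays, and the lists were drawn up with their results known, so nothing is read from these counts. Krtdap, Perp, Krt77 and Dsp were under the floor on both arrays without cortisol. Their floored signals there were level by construction, as were those of Krt25, Krt27 and Krtap8-1. The metallothionein gene Mt2, of the glucocorticoid response list, followed at place 12, with a distance of 1.01.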

How the data were processed

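Total RNA of gastrocnemius pooled from 10 mice per group was hybridized to 4 arrays, 1 for each group. Per the labels, the authors computed the intensity of each probe set with MAS 5.0, on a linear scale. In the deposited columns the mean after trimming 2% from both ends was nearly the same, 498.7 to 498.9, so a common scaling had been applied. Per the file headers of the deposited instrument settings, whose other entries were not used, the arrays shared 1 chip lot and ran in 4 fluidics modules.

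Each array was rescaled to a trimmed mean of 500 over the 12422 probe sets that were not controls, signals under 100 were set to 100, and log2 ratios were taken (Python 3.11.15, numpy 2.4.6, pandas 2.3.3). Of the probe sets, 10833 had 1 gene symbol in the platform annotation, 396 had several and 1193 had none; 10817 matched GRCm38.p6 gene IDs. Where a gene had several sets, the brightest on average stood for it. A gene was counted when its ratio was at least 2-fold. With 1 array per group no test, SE or p-value was computed, and the number of arrays limits the precision. The ratio computation was tested on simulated data. The members and marker lists were chosen with earlier results of these data known. The named genes were the 8 members, all other keratin family genes past 2-fold in any comparison, up to 3 highest and the lowest of each list at 3 h, and the 8 nearest in pattern; genes described as under the floor, and a few others of the keratin families, were named beside them. Alternatives changed the floor, the scaling and the choice of probe set.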

Additional observations from a re-analysis of the deposited data

How the results depend on the processing

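The 3 h and 24 h differences of the 5 measured keratins kept their sign in every alternative in which a value could be had. The log2 ratio of Krt71 at 3 h against adrenalectomized lay between 2.81 and 3.02, and its 24 h against 3 h ratio between -1.91 and -1.81. The size of the bounds follows the floor by construction: the median log2 ratio of the 5 genes at 3 h, 3.32, became 3.88 with a floor of 50 and with none, and 2.52 with a floor of 200. At 24 h against adrenalectomized the count of keratins past 2-fold was 4. It became 2 with a floor of 200, 5 with a floor of 50 or none, and 3 under ribosomal protein scaling or with all probe sets averaged. The genes at least 2-fold higher at 3 h in the 4 epidermis and hair lists numbered 14, and 20 with a floor of 50 and 10 with one of 200. The other keratin genes at least 2-fold higher at 3 h numbered 13, and 8 under scaling to ribosomal protein probe sets, which moved the median of all genes from -0.02 to -0.20. Over all genes at 3 h, 115 were higher and 72 lower; the counts were 214 and 157 with a floor of 50 or none, 68 and 34 with a floor of 200, and 83 and 120 under ribosomal protein scaling. Of the 8 genes nearest in pattern, 4 were shared without a floor. Krt27 could not be given without suffixed probe sets. No paired analysis was possible because each group had 1 array. Signals under the floor have no order, and 1 pool per group gives no spread between mice.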
